A study of Rattus norvegicus with 18 samples.

Results

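MHC class II antigen presentation was examined through 8 rat genes: the structural chains RT1-Da, RT1-Db1, RT1-Ba and RT1-Bb, the invariant chain Cd74, the peptide exchange chains RT1-DMa and RT1-DMb, and the activator Ciita. Members were all probe sets whose annotated symbol was exactly 1 of these names. This gave 14 probe sets for 8 of the 14217 genes named alone by a probe set, and 8 of the 14 probe sets, for 7 of the 8 genes, were bright enough to be tested (both RT1-Bb probe sets were too dim). The RNA came from bone marrow mesenchymal stem cells (BMSCs), the plastic-adherent stromal cells of the marrow, of Sprague-Dawley rats that entered the study at 6 weeks of age. Rats ate a normal diet (ND, 100% basal diet) or a high-fat diet (HFD), in which basal diet made up 60%, lard 20%, egg yolk powder 10% and sucrose 10%. Feeding lasted 1, 2 or 4 months, and each of the 6 groups had 3 Affymetrix arrays. No allele was altered in any group. The cells were grown by plating whole marrow, which also brings blood cells into the dish; the sample labels give passage 3 and the series text gives passage 1.

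MHC class II molecules are pairs of an alpha and a beta chain that show peptides from the endosome to CD4+ T cells. In rats RT1-D (RT1-Da with RT1-Db1) and RT1-B (RT1-Ba with RT1-Bb) are the classical pairs. The invariant chain Cd74 blocks the groove of new pairs and leads them to the endosome, where proteases cut it down and the RT1-DM pair swaps the remaining piece for peptide. Macrophages, dendritic cells and B cells carry the pathway constitutively or after activation, whereas stromal cells have little until interferon gamma induces Ciita. Ciita binds no DNA itself and acts on factors already seated on the X and Y boxes of class II promoters.

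Most of the family is linked on 1 chromosome. On the GRCr8 assembly (RefSeq genes), 6 members lie between 4515393 and 4712335 on chromosome 20, in the order RT1-Da, RT1-Db1, RT1-Ba, RT1-Bb, RT1-DMb and RT1-DMa. Cd74 is at chr18:56527071-56536406 and Ciita at chr10:5646854-5694393. The promoter table, also from RefSeq (GRCr8), held 6 of the 8 members (not RT1-DMb or Ciita), as 300 bases each from 250 before to 50 after the start. Stretches of 65 bases are shown for 5 of these, because letters matching the boxes of class II promoters stand there: the Y box in all 5 and the X box core in RT1-Da and RT1-Db1. The RT1-Da stretch is chr20:4515316-4515380 on the plus strand, RT1-Db1 is chr20:4560228-4560292 on the minus strand, RT1-Ba is chr20:4576964-4577028 on the plus strand, RT1-Bb is chr20:4604165-4604229 on the minus strand and RT1-DMa is chr20:4712385-4712449 on the minus strand. All run 5′ to 3′ towards the gene, and capitals mark matches to the X box core, an 11-base pattern in which any base was allowed at the third and the seventh position, and to the Y box ATTGG.
RT1-Da: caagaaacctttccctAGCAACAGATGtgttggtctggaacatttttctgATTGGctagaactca
RT1-Db1: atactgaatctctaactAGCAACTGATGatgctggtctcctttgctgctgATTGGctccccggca
RT1-Ba: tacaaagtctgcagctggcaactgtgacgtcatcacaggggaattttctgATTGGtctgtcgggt
RT1-Bb: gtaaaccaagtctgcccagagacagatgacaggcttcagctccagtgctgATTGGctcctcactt
RT1-DMa: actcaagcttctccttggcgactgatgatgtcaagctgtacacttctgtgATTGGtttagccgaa

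All 5 RT1 promoters had a forward Y box between 34 and 80 bases before the start; a forward ATTGG within 100 bases before the start was found in 9.35% of the 33469 promoters of the table. Searched on both strands of the full 300 bases, ATTGG matched 6 of 6 member promoters and 37.5% of all. The Cd74 match was on the reverse strand, 189 bases before the start. The X box core was matched in RT1-Da and RT1-Db1, 83 and 113 bases before the start, against 0.248% of all promoters. It ended 23 bases ahead of the Y box in RT1-Da and 22 bases ahead in RT1-Db1. The GAS element TTCNNNGAA (both strands) matched 0 of 6 member promoters, which did not include that of Ciita, and 8.87% of all. These are matches of letters in a short window, not measured binding sites. The X box core was searched as a fixed 11-base pattern, so a promoter without a match is not shown to lack an X box. The X and Y matches do not overlap each other.

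**Figure D1:**
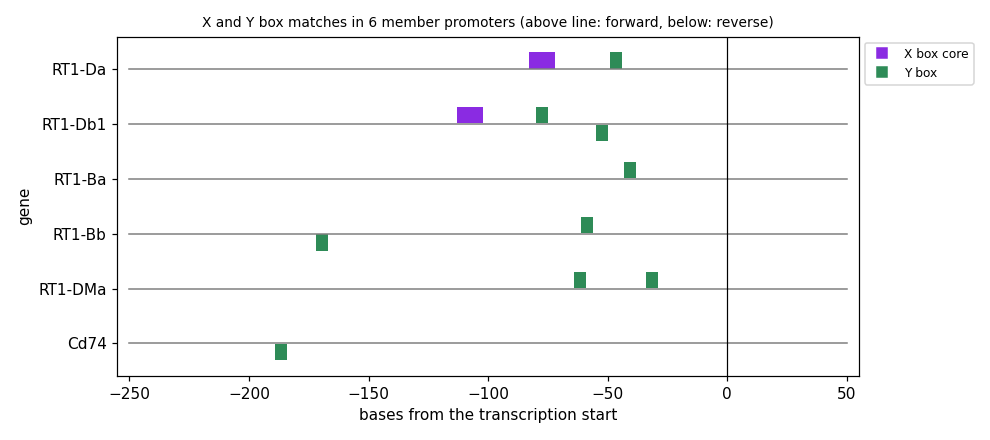
Positions of X box core (purple) and Y box (green) matches along 6 member promoters, in bases from the transcription start; marks above a line are on the gene's own strand and marks below it on the other strand. The RT1-Da and RT1-Db1 promoters match the X box core pattern, and all 5 RT1 promoters have a forward Y box in the last 80 bases before the start. A promoter without a match is not shown to lack an X box.

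The values are deposited array intensities, taken to log2. The median intensity of an array was 25.4 to 27.0. The column of ND 1-month replicate 1 was moved down by 1343 rows before use, after which its correlation with the other arrays' mean was 0.990; the first 1343 probe sets, Cd74 among them, have no value on that array. Most markers of the labelled stromal type were high: 11 of 12 listed stromal genes were above the intensity filter. The mean of the 10 with a value on every array stayed between 9.76 and 10.19 log2. Vcam1, the tested gene not in that mean, ranged from 2.56 to 6.77 log2. Of these 11, 1 passed in a diet comparison: Pdgfra (1370941_at), a growth factor receptor of stromal cells, fell by 1.08 ± 0.25 log2 units in HFD at 2 months (SE, n = 3 arrays a group; limma adjusted p = 0.0427). That call was lost under 13 of 31 alternatives, 8 of which each left out 1 array (-1.21 to -0.89 over all of them), and its value was -0.89 with the macrophage covariate (adjusted p = 0.076). Macrophage markers were also present, with 20 of 21 listed genes tested. The mean level of the 16 with a value on every array ran from 4.13 to 9.12 log2 in ND and 6.88 to 8.48 in HFD at 1 month. At 2 months it ran from 5.78 to 9.39 in ND and 5.12 to 7.77 in HFD. At 4 months it ran from 7.52 to 9.77 in ND and 8.92 to 9.38 in HFD. Msr1, the other gene of that list, had no probe set of its own name here. In bulk RNA, fewer cells of a type and less RNA per cell cannot be told apart. Of the other antigen-presenting cells, 2 of 9 B cell markers (Blnk and Cd22) and 5 of 10 dendritic cell markers (Itgax, Flt3, Batf3, Cd83 and Clec10a) were above the filter. Only 5 of these 9 B cell markers and 6 of these 10 dendritic cell markers had a probe set of their own name.

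The filter left out the dimmest 30% of probe sets, at or below 3.22 log2, and RT1-Da, RT1-Bb and Cd74 sat close to it. RT1-Da (1370883_at) averaged 3.35 log2, a level under which 32.2% of probe sets lay. The RT1-Bb probe sets 1371033_at and 1371065_at averaged 2.93 and 2.37 log2, with 24.2% and 10.4% of probe sets dimmer. Cd74 (1367679_at) averaged 3.57 log2 with 35.6% dimmer, and Ciita (1369214_a_at) averaged 4.00 log2 with 41.3% dimmer. RT1-Db1 (1370383_s_at, mean 4.71 log2) had 49.7% of probe sets below it, and the brighter RT1-Ba probe sets 1392334_at and 1381593_x_at, at means of 6.45 and 6.37 log2, had 69.1% and 68.1%. The exchange chains stood well above: 78.4% of probe sets were dimmer than RT1-DMa (1370904_at, mean 7.25 log2) and 68.6% were dimmer than RT1-DMb (1370882_at, mean 6.40 log2). Probe sets differ in their response, so these ranks describe signal over background and give no order of abundance among the genes.

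**Figure D2:**
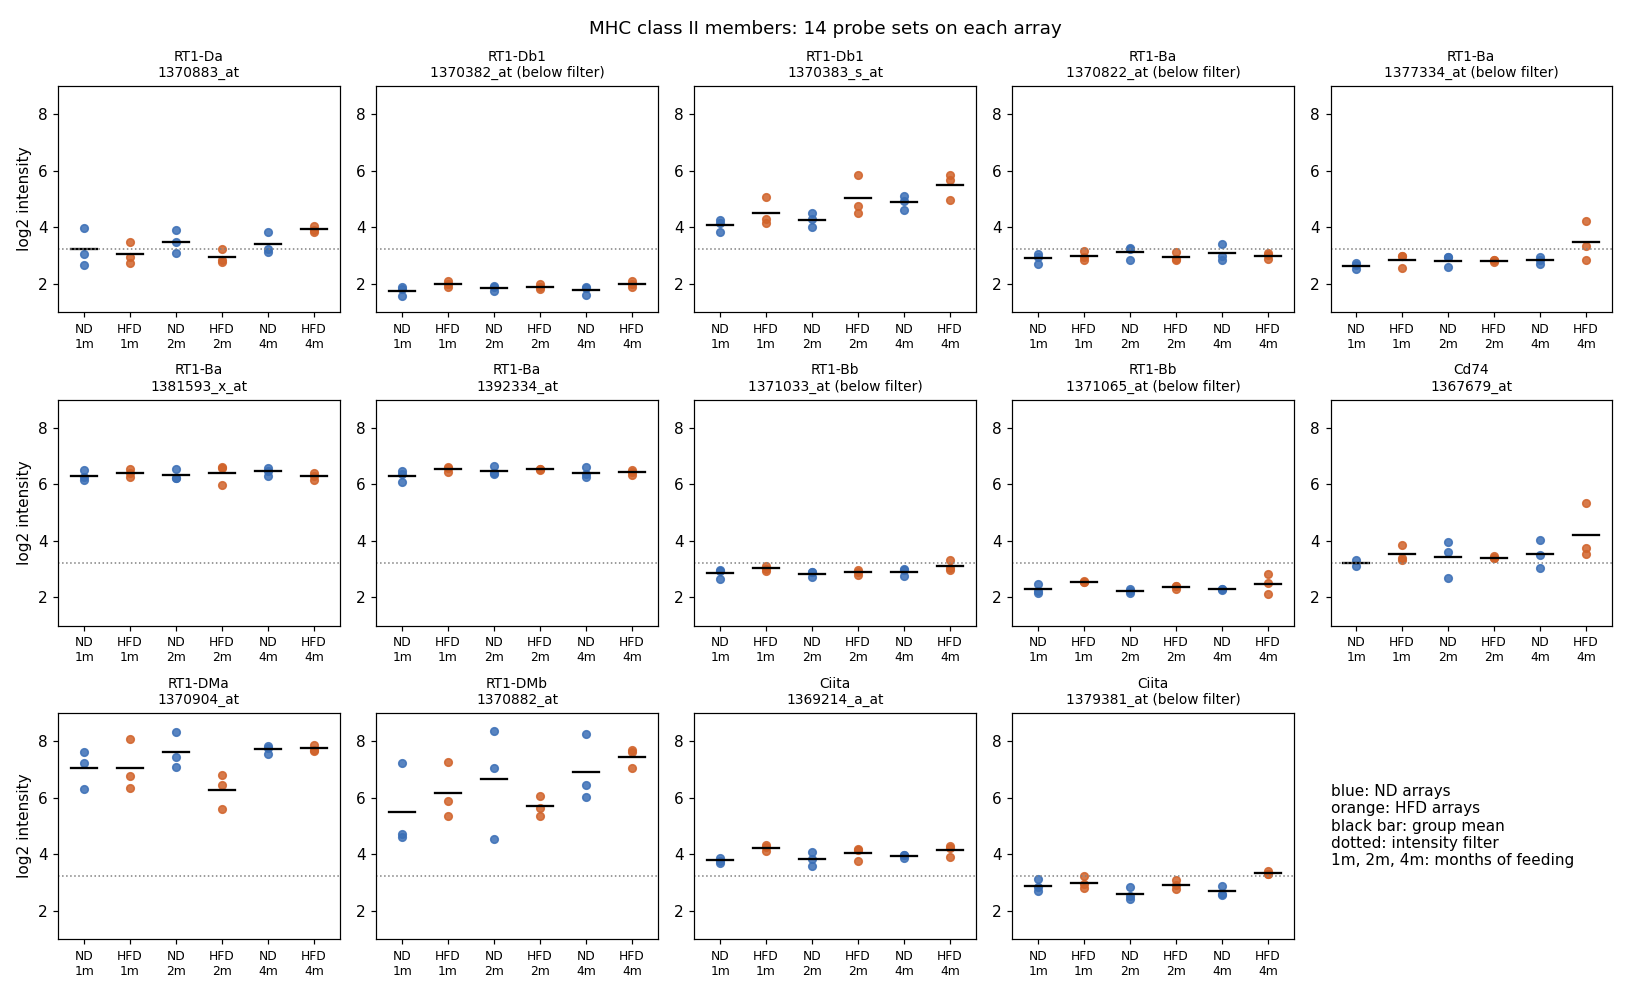
Log2 intensity of the 14 member probe sets on each array (points, blue ND and orange HFD), by diet and months of feeding, with the mean of each group as a black bar and the intensity filter at 3.22 log2 as a dotted line. RT1-DMb spreads from 4.55 to 8.37 log2, and RT1-Ba 1392334_at stays within 0.57 log2 units.

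Among the structural chains, RT1-Da, the RT1-D alpha chain, read 3.97, 2.66 and 3.06 log2 in ND and 2.95, 3.47 and 2.72 in HFD at 1 month. The 2-month values were 3.91, 3.47 and 3.10 in ND and 2.79, 2.86 and 3.25 in HFD. At 4 months it read 3.14, 3.83 and 3.24 in ND and 3.82, 3.90 and 4.06 in HFD. The diets overlapped at each time, and the HFD 4-month arrays lay above all HFD arrays of 1 and 2 months. All values were within 1.4 log2 units of each other, close to the dim end of the array.

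RT1-Db1, the RT1-D beta chain, was read by 1370383_s_at, whose suffix marks probes shared between transcripts, so closely related beta chain genes may add to it. It read 3.82, 4.15 and 4.25 log2 in ND and 5.09, 4.31 and 4.14 in HFD at 1 month. The 2-month values were 4.02, 4.30 and 4.51 in ND and 4.50, 5.84 and 4.77 in HFD, and at 4 months 4.92, 4.61 and 5.12 in ND and 4.98, 5.66 and 5.86 in HFD. Group means were ordered by time within each diet, from 4.07 ± 0.23 to 4.89 ± 0.26 log2 in ND and from 4.51 ± 0.50 to 5.50 ± 0.46 in HFD (SD, n = 3), and the HFD mean was the higher at each time; the diets overlapped each time. The other RT1-Db1 probe set, 1370382_at, stayed between 1.56 and 2.11 log2, below the filter on every array.

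RT1-Ba, the RT1-B alpha chain, had 4 probe sets that did not give 1 level. The bright ones, 1392334_at and 1381593_x_at, were flat, with ranges of 6.07 to 6.65 and 5.99 to 6.62 log2. The dim ones, 1370822_at and 1377334_at, ranged from 2.71 to 3.42 and from 2.53 to 4.21 log2. The suffix of 1381593_x_at marks probes that can match other sequences. Which of the 4 reads RT1-Ba transcript was not tested, and the gene's level is uncertain here. RT1-Bb, its partner beta chain, lay between 2.66 and 3.33 log2 on 1371033_at and between 2.13 and 2.84 on 1371065_at.

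Cd74, the invariant chain, read 3.33 and 3.11 log2 on the 2 ND arrays with a value at 1 month, against 3.40, 3.85 and 3.31 in HFD. The 2-month values were 3.60, 3.95 and 2.70 in ND and 3.45, 3.38 and 3.38 in HFD. At 4 months it read 3.51, 4.03 and 3.04 in ND and 3.73, 3.53 and 5.34 in HFD. A single array, HFD 4-month replicate 3, stood apart at 5.34 log2, with 4.03 in ND 4-month replicate 2 the next highest. Without it, Cd74 stayed between 2.70 and 4.03 log2 throughout.

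RT1-DMa, the alpha chain of the exchange factor, read 7.64, 7.23 and 6.32 log2 in ND and 6.78, 8.07 and 6.36 in HFD at 1 month. The 2-month values were 7.46, 8.33 and 7.08 in ND and 5.62, 6.46 and 6.80 in HFD, with every HFD array below every ND array. At 4 months it read 7.78, 7.84 and 7.55 in ND and 7.89, 7.66 and 7.71 in HFD, and the diets overlapped. The HFD 2-month group had the lowest mean of the 6 groups, 6.29 ± 0.61 log2 (SD, n = 3), against 7.06 ± 0.67 to 7.75 ± 0.12 in the others.

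RT1-DMb, the beta chain of the exchange factor, read 7.23, 4.72 and 4.60 log2 in ND and 5.89, 7.27 and 5.37 in HFD at 1 month. The 2-month values were 7.05, 8.37 and 4.55 in ND and 5.37, 5.65 and 6.07 in HFD, and at 4 months 6.47, 8.25 and 6.02 in ND and 7.63, 7.05 and 7.68 in HFD. Arrays of the same group thus differed by up to 3.82 log2 units, 14.1-fold, with a high and a low array in each of the ND groups at 1 and 2 months. The residual SD of RT1-DMb in the fit was 1.19 log2 units, exceeded by 1.35% of tested probe sets; that of RT1-DMa was 0.587, that of Cd74 0.561, and the median of all tested probe sets was 0.21.

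Ciita, the activator, read 3.88, 3.71 and 3.78 log2 in ND and 4.13, 4.32 and 4.27 in HFD at 1 month on 1369214_a_at. The 2-month values were 3.85, 3.58 and 4.10 in ND and 3.75, 4.20 and 4.17 in HFD, and at 4 months 3.86, 3.98 and 3.99 in ND and 4.28, 3.92 and 4.21 in HFD. Every HFD array was above every ND array at 1 month, and the diets overlapped at 2 and 4 months. Its residual SD, 0.177 log2 units, was below the median of all probe sets. The other Ciita probe set, 1379381_at, mostly lay below the filter level; at 4 months it read 2.57, 2.60 and 2.89 in ND and 3.40, 3.30 and 3.30 in HFD, with no overlap.

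The first question of the design was whether the diet changed these genes at a given feeding time. No member passed in any diet comparison by limma's moderated test (Benjamini-Hochberg adjusted p under 0.05, adjusted over 21729 tested probe sets). What the p-values take as error is the spread between arrays; the series text gives 3 per group and the labels do not say that these were separate animals.

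At 1 month 0 of 8 member probe sets passed, as did 0% of all tested. Ciita was 0.45 log2 units higher in HFD (95% interval 0.13 to 0.76; limma adjusted p = 0.310), the 1 member with an unadjusted p under 0.05, a level reached by 9.77% of probe sets. It was also the 1 member whose HFD arrays all lay higher, which 5.92% of probe sets did. RT1-Db1 differed by 0.44 (interval -0.27 to 1.15) and RT1-DMb by 0.66 (interval -1.25 to 2.57), so changes of more than 2-fold in RT1-DMb cannot be told from none.

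At 2 months 0 of 8 passed, while 2.54% of all tested probe sets (552) did. That total depended on single arrays: it was 48, 207 and 471 without ND 2-month replicates 1, 2 and 3, and 86, 71 and 1261 without HFD 2-month replicates 1, 2 and 3. RT1-DMa was -1.33 log2 units in HFD relative to ND (interval -2.27 to -0.39; limma adjusted p = 0.114), and RT1-Db1 was 0.76 higher (interval 0.06 to 1.47; adjusted p = 0.210). These 2 had an unadjusted p under 0.05, against 20.8% of all probe sets. RT1-DMa was the 1 member lower on every HFD array, against 12.9% of all. RT1-DMb differed by -0.96 (interval -2.87 to 0.95), which was -0.10 without ND 2-month replicate 2 and -2.01 without ND 2-month replicate 3. RT1-Da differed by -0.53 (interval -1.18 to 0.13) and Cd74 by -0.01 (interval -0.92 to 0.89). The macrophage list was lower in the same arrays: 20 of 20 tested genes had a negative difference, with a median of -1.58 log2 units against -0.04 for all named genes, although none passed. At 1 and 4 months 17 of 20 were positive each time, with medians of 1.66 and 0.42. Cd14, Aif1, Cd53 and Mmp12 had no value on ND 1-month replicate 1, the array of its group with the highest macrophage mean. The 16 markers with a value on every array averaged 6.28 log2 in ND and 7.47 in HFD at 1 month. With the macrophage mean as a covariate the 2-month RT1-DMa difference was -0.84 (limma adjusted p = 0.177), that of RT1-DMb 0.22 and that of RT1-Da -0.15.

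At 4 months 0 of 8 passed, as did 0% of all tested, and 0 members had an unadjusted p under 0.05 (3.73% of all). The largest estimate was that of Cd74, 0.67 log2 units (interval -0.23 to 1.58; limma adjusted p = 0.999), and it was 0.10 without HFD 4-month replicate 3. RT1-Db1 differed by 0.61 (interval -0.10 to 1.32), RT1-Da by 0.52 (interval -0.13 to 1.18) and RT1-DMa by 0.03 (interval -0.92 to 0.97). No tested member separated the diets without overlap, which 8.54% of probe sets did.

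Averaged over the 3 times, 0 of 8 passed and 2.82% of all tested did. Ciita was 0.28 log2 units higher in HFD (interval 0.10 to 0.46; limma adjusted p = 0.083) and RT1-Db1 was 0.61 higher (interval 0.20 to 1.01; adjusted p = 0.093). Both had an unadjusted p under 0.05, against 21.4% of all probe sets, and both had a higher HFD mean at each of the 3 times. With the macrophage mean as a covariate these differences were 0.28 and 0.61 again. RT1-DMa was at -0.43 (interval -0.98 to 0.11), Cd74 at 0.32 (interval -0.22 to 0.86) and RT1-DMb at 0.08 (interval -1.02 to 1.18). For Cd74 the 1-month part rests on 2 ND arrays, without the one of highest macrophage mean. The dim Ciita probe set 1379381_at, untested with the filter, was 0.36 higher in HFD and passed when no filter was used (adjusted p = 0.0468). Dim probe sets as a whole leaned the same way: those below the filter had a median averaged difference of 0.06 and 71.8% were above 0, against a median of -0.02 for the tested ones. The lower quartile of the arrays was 7.15 to 7.89 in ND and 7.66 to 8.16 in HFD, in linear intensity, and its part in the Ciita difference was not tested.

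**Figure D3:**
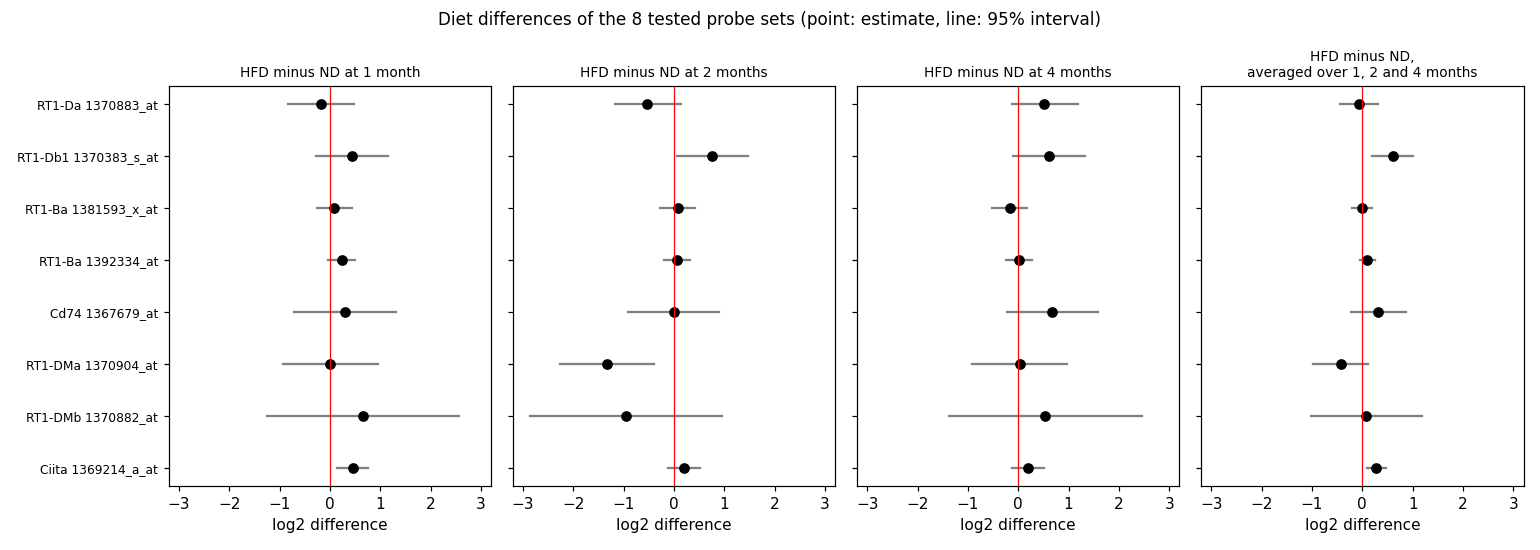
Difference HFD minus ND in log2 units for the 8 tested member probe sets at 1, 2 and 4 months and averaged over these, as estimate (point) and 95% interval (line) from the fit of all arrays. The intervals of Ciita at 1 month, of RT1-Db1 and RT1-DMa at 2 months, and of Ciita and RT1-Db1 in the average leave out 0, and none of these passes after adjustment over all probe sets.

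Whether the diet difference itself changed with time was tested for each probe set with an F test. No member passed (0 of 8; 0% of all tested; limma adjusted p of at least 0.763), and 0 members had an unadjusted p under 0.05, against 6.74% of all. The lowest adjusted p values were 0.763 for RT1-DMa and 0.766 for RT1-Da. The 2-month estimate of RT1-DMa, -1.33, is therefore not shown to differ from those of 0.01 at 1 month and 0.03 at 4 months.

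Changes with feeding time were compared within each diet; time and age run together in this design, and comparisons that share a group are not independent. In ND, 0 of 8 members passed from 1 to 2 months, from 2 to 4 months or from 1 to 4 months, and 0% of all probe sets passed in each. RT1-Db1 was 0.81 log2 units higher at 4 than at 1 month (interval 0.11 to 1.52; limma adjusted p = 0.475), the 1 member with an unadjusted p under 0.05 there (9.39% of all); 0 members reached that level from 1 to 2 months (2.59% of all) or from 2 to 4 months (7.38% of all). All 3 ND 4-month arrays were above the ND arrays of 1 and 2 months for RT1-Db1, which held for 4.12% and 4.14% of probe sets.

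In HFD, 0 of 8 members passed from 1 to 2 months, where 0.0782% of all did, with 0 at an unadjusted p under 0.05 (7.76% of all). From 2 to 4 months 0 of 8 passed and 0.704% of all did. Here RT1-DMa was 1.46 log2 units higher (interval 0.52 to 2.41; limma adjusted p = 0.125) and RT1-Da 0.96 higher (interval 0.31 to 1.61; adjusted p = 0.144). These 2 had an unadjusted p under 0.05, against 16.9% of all. RT1-DMb was 1.76 higher (interval -0.15 to 3.66; adjusted p = 0.332) and Cd74 0.80 higher (interval -0.11 to 1.70; adjusted p = 0.354), the latter 0.23 without HFD 4-month replicate 3. RT1-DMa, RT1-DMb, RT1-Da and Cd74 were higher on every 4-month array, against 12.6% of all probe sets, and RT1-Ba 1392334_at was lower on every one by a mean of 0.11 (lower in 14.1% of all).

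The macrophage list was higher in the same arrays, with 20 of 20 genes positive at a median of 2.67 log2 units and none past the threshold. With the macrophage mean as a covariate the 2 to 4 month differences in HFD were -0.07 for RT1-DMb, 0.71 for RT1-DMa, 0.39 for RT1-Da and 0.19 for Cd74. From 1 to 4 months in HFD 0 of 8 passed, as did 0% of all. RT1-Db1 was 0.99 higher (interval 0.28 to 1.69; limma adjusted p = 0.486) and RT1-Da 0.88 higher (interval 0.23 to 1.53; adjusted p = 0.512), the 2 members with an unadjusted p under 0.05 (7.92% of all). RT1-Da was the 1 member without overlap, against 8.64% of all probe sets that were higher on every array.

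The tested members differed in how they followed the macrophage markers across arrays. The measure was the mean of the 16 macrophage markers with a value on every array, which was lowest and highest in ND 1-month replicate 3 (-3.49) and ND 4-month replicate 2 (2.15), in relative log2 units. RT1-DMb followed it most closely, with Pearson's r = 0.933 and Spearman's rho = 0.913 over 18 arrays (permutation p adjusted over 8 relations, 8e-05 for both, from raw values of 1e-05, the smallest that 100000 resamples can give). RT1-Da had r = 0.834 and rho = 0.856 (adjusted permutation p = 0.00024 and 0.00016). RT1-DMa had r = 0.795 and rho = 0.771 (adjusted permutation p = 0.00043 and 0.00061). Cd74, over 17 arrays, had r = 0.588 and rho = 0.784 (adjusted permutation p = 0.018 and 0.00074).

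The other tested probe sets showed no such increase with the markers. RT1-Ba 1392334_at ran the other way, with r = -0.535 and rho = -0.544 (adjusted permutation p = 0.033 and 0.034), as did 1381593_x_at with r = -0.429 and rho = -0.447 (adjusted permutation p = 0.1 and 0.086). RT1-Db1 had r = 0.105 and rho = 0.026 (adjusted permutation p = 0.68 and 0.92), and Ciita had r = 0.168 and rho = 0.146 (adjusted permutation p = 0.58 and 0.64).

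After subtraction of the group means r was 0.903 for RT1-DMb, 0.842 for RT1-Da, 0.759 for RT1-DMa, 0.512 for Cd74 and -0.849 for RT1-Ba 1392334_at. Without the arrays farthest from the median marker level, HFD 2-month replicate 1 and ND 1-month replicate 3, r was 0.954, 0.891, 0.701, 0.616 and -0.574 in the same order. The arrays that read RT1-DMb highest, ND 2-month replicate 2 at 8.37 and ND 4-month replicate 2 at 8.25 log2, had marker means of 1.65 and 2.15. Those that read it lowest, ND 2-month replicate 3 at 4.55 and ND 1-month replicate 3 at 4.60, had marker means of -1.84 and -3.49. Macrophages and the members share each array's RNA sample, and no sorted macrophages were measured here. How many of all tested probe sets follow the markers as closely was not counted, so these relations are not shown to be particular to the members. The permutations moved arrays freely between the groups.

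**Figure D4:**
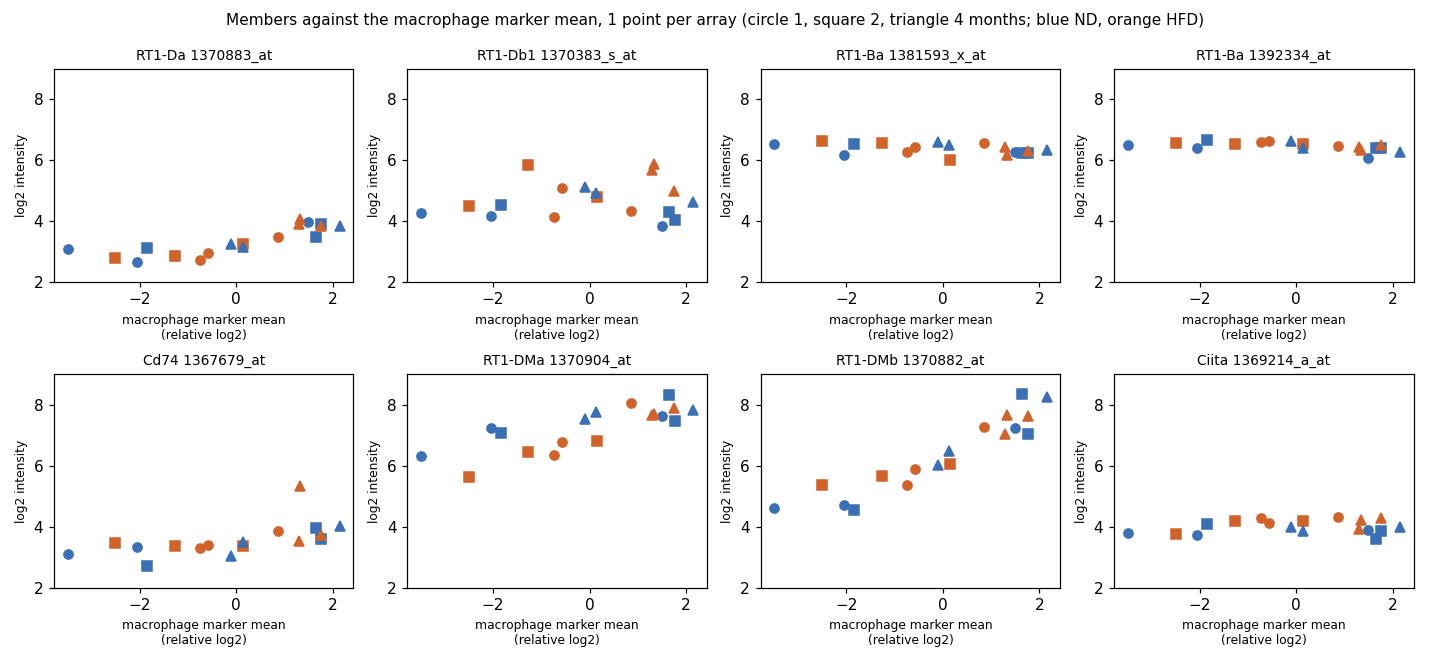
Log2 intensity of the 8 tested member probe sets against the mean of 16 macrophage markers in relative log2 units, 1 point per array (blue ND, orange HFD; circle 1, square 2 and triangle 4 months). RT1-DMb (r = 0.933), RT1-Da (0.834) and RT1-DMa (0.795) increase with the markers, RT1-Db1 (0.105) and Ciita (0.168) show no clear trend, and 1 Cd74 point, HFD 4-month replicate 3, stands above its trend.

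HFD 4-month replicate 3 was the highest of the 18 arrays on 6 of the 14 member probe sets; no other array was highest on more than 2. These were Cd74 (5.34 log2, next 4.03), RT1-Ba 1377334_at (4.21, next 3.35), RT1-Bb 1371033_at (3.33, next 3.12), RT1-Bb 1371065_at (2.84, next 2.57), RT1-Da (4.06, next 3.97) and RT1-Db1 1370383_s_at (5.86, next 5.84). This holds for 1 of the 4 RT1-Ba probe sets, a dim one, and for 1 of the 2 RT1-Db1 probe sets. That RT1-Ba probe set and both RT1-Bb probe sets were below the filter. The share of all probe sets that were highest on this array was not counted, so the 6 of 14 is only a description. Both tested RT1-Ba probe sets peaked elsewhere: 1392334_at read 6.34 log2 here and 6.65 in ND 2-month replicate 3, and 1381593_x_at read 6.16 here and 6.62 in HFD 2-month replicate 1. Its RT1-DMa and RT1-DMb values, 7.71 and 7.68 log2, and its Ciita value, 4.21, were not the highest. Its macrophage mean, 1.33, lay below those of ND 4-month replicate 2 (2.15), ND 2-month replicates 1 and 2 (1.76 and 1.65), HFD 4-month replicate 1 (1.75) and ND 1-month replicate 1 (1.49). Without this array, the RT1-Da difference from 2 to 4 months in HFD was 0.89 and that of RT1-DMb 1.65.

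The machinery around the members was described from fixed lists. Of the antigen processing genes, which include the cathepsins, legumain (Lgmn), the thiol reductase Ifi30 and the ubiquitin ligases Marchf1 and Marchf8, 13 of 13 were tested and 0 passed in any diet comparison. At 1 month 11 of 13 had a positive difference, with a median of 0.19 log2 units, and at 4 months 9 of 13, with a median of 0.17. Ctsb, Ctsd, Lgmn and Cd63 had no value on ND 1-month replicate 1. That array had the highest macrophage mean of its group, 1.49 against -2.05 and -3.49, so their 1-month differences leave it out. At 2 months 11 of 13 had a negative difference, with a median of -0.62 log2 units against -0.04 for all named genes. Those with the largest moderated t were Cd82, a tetraspanin, at -0.49 (interval -0.78 to -0.21; limma adjusted p = 0.0637), Ctsh at -0.65 (interval -1.20 to -0.10; adjusted p = 0.173), Ctsz at -1.44 (interval -2.84 to -0.05; adjusted p = 0.226) and Lgmn at -0.78 (interval -1.85 to 0.30; adjusted p = 0.387). Of these 4, Cd82 was lower on every HFD array, against 12.9% of all tested probe sets. With the macrophage mean as a covariate they were at -0.48, -0.37, -0.53 and 0.07. From 2 to 4 months in HFD 10 of 13 were positive, with a median of 0.64 and 0 past the threshold. Ctss, the main protease of the invariant chain, was named for its role after its values were seen. At 2 months it was at -1.07 (interval -3.59 to 1.45), and at 0.63 with the covariate. It ranged from 5.85 log2 in ND 1-month replicate 3 to 11.43 in ND 4-month replicate 2, the arrays with the lowest and highest macrophage means.

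Of the class II transcription list, 8 of 10 genes were tested and 0 passed in any diet comparison; Irf4 and Spi1 had no probe set of their own name. At 2 months the largest moderated t values belonged to the Y box subunit Nfyc at -0.21 (limma adjusted p = 0.305), the X box proteins Rfxank at -0.28 (adjusted p = 0.335) and Rfxap at -0.19 (adjusted p = 0.503), and Irf8, a factor of myeloid cells, at -0.68 (adjusted p = 0.614). Among the other box proteins, named for their role, Rfx5, which binds the X box, ranged from 7.65 to 8.18 log2, Nfyb from 6.38 to 7.24, and Nfya had a mean of 6.44. Nfyc ranged from 8.11 to 8.50 and Irf8 from 3.16 to 6.10. Of the costimulation list, 5 of 8 genes had a probe set of their own name and 3 were tested. These were the T cell ligand Cd86 (2.47 to 4.36 log2), Cd40 (4.52 to 5.85) and the adhesion molecule Icam1 (8.20 to 8.98). Of these, 0 passed in any diet comparison, and at 2 months they differed by -0.71, 0.24 and -0.05.

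Of 12 interferon gamma genes 11 had a probe set of their own name and 8 were tested. Of these 4 lists this was the 1 that held calls in diet comparisons. At 1 and 4 months 5 and 4 of the 8 were negative in HFD, where Irf1 and Gbp2 had no value on ND 1-month replicate 1. At 2 months 8 of 8 were negative, with a median of -0.52 log2 units, and 1 fell, where 2.54% of all tested probe sets passed. The 1 that fell was Jak2, a kinase bound to the interferon gamma receptor. It read 7.90, 7.68 and 7.34 log2 in ND and 6.61, 6.42 and 6.20 in HFD at 2 months, with every HFD array below every ND array (12.9% of all tested probe sets). It fell by 1.23 ± 0.20 log2 units (SE; limma adjusted p = 0.00965), and by 1.31 with the macrophage mean as a covariate (adjusted p = 0.0096). In HFD it rose again from 2 to 4 months, by 1.17 ± 0.20 (limma adjusted p = 0.0258), to 7.71, 7.64 and 7.38. That rise kept its direction but lost the call without HFD 2-month replicate 1 or 2 or HFD 4-month replicate 1 or 2 (1.06 to 1.27 over all arrays left out in turn) and with the macrophage covariate (1.29; adjusted p = 0.0561). The 2-month call was lost without ND 2-month replicate 1 (-1.10; adjusted p = 0.0555) and in a fit of the 2-month arrays alone (adjusted p = 0.0891). Jak2 also serves many cytokine and hormone receptors, and neither receptor chain, Ifngr1 or Ifngr2, passed.

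Jak1, its partner kinase, had 2 probe sets. The brighter one, 1383478_at, read 10.18, 10.02 and 10.31 log2 in ND and 9.90, 9.83 and 9.97 in HFD at 2 months and did not pass. The dimmer one, 1384060_at, read 7.93, 7.96 and 8.22 in ND and 7.55, 7.43 and 7.27 in HFD, and fell by 0.62 ± 0.13 (SE; limma adjusted p = 0.0245). The latter call was lost without any single compared array other than HFD 2-month replicate 3 (-0.68 to -0.53), in a fit of the 2-month arrays alone (adjusted p = 0.143), and with a gene's probe sets averaged (-0.44; adjusted p = 0.0514). Next by moderated t at 2 months were Irf2, a factor that can oppose Irf1, at -0.47 (interval -0.76 to -0.18; limma adjusted p = 0.0741), and the interferon-induced GTPase Gbp2 at -1.31 (interval -2.20 to -0.42; adjusted p = 0.103). Irf1, an early target of the pathway that acts on the Ciita promoter, differed by -0.56 (interval -0.97 to -0.15; limma adjusted p = 0.127). All 3 were lower on every HFD array, as were 12.9% of all tested probe sets, and none of the 3 passed. With the macrophage covariate they were at -0.34, -0.86 and -0.72. Averaged over time Jak2 fell by 0.47 (adjusted p = 0.0448) and Jak1 1384060_at by 0.32 (adjusted p = 0.0395), calls lost without any 1 of 14 and 13 of the 18 arrays. Both were also lost under quantile normalization (-0.40 and -0.25; adjusted p = 0.086 and 0.095) and with the replicate number as a block (adjusted p = 0.0631 and 0.0636), and the Jak1 call with its probe sets averaged (-0.24; adjusted p = 0.0629). Irf1 was at -0.44 (adjusted p = 0.0574). In the same average Ciita was 0.28 higher in HFD, as given above.

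**Figure D5:**
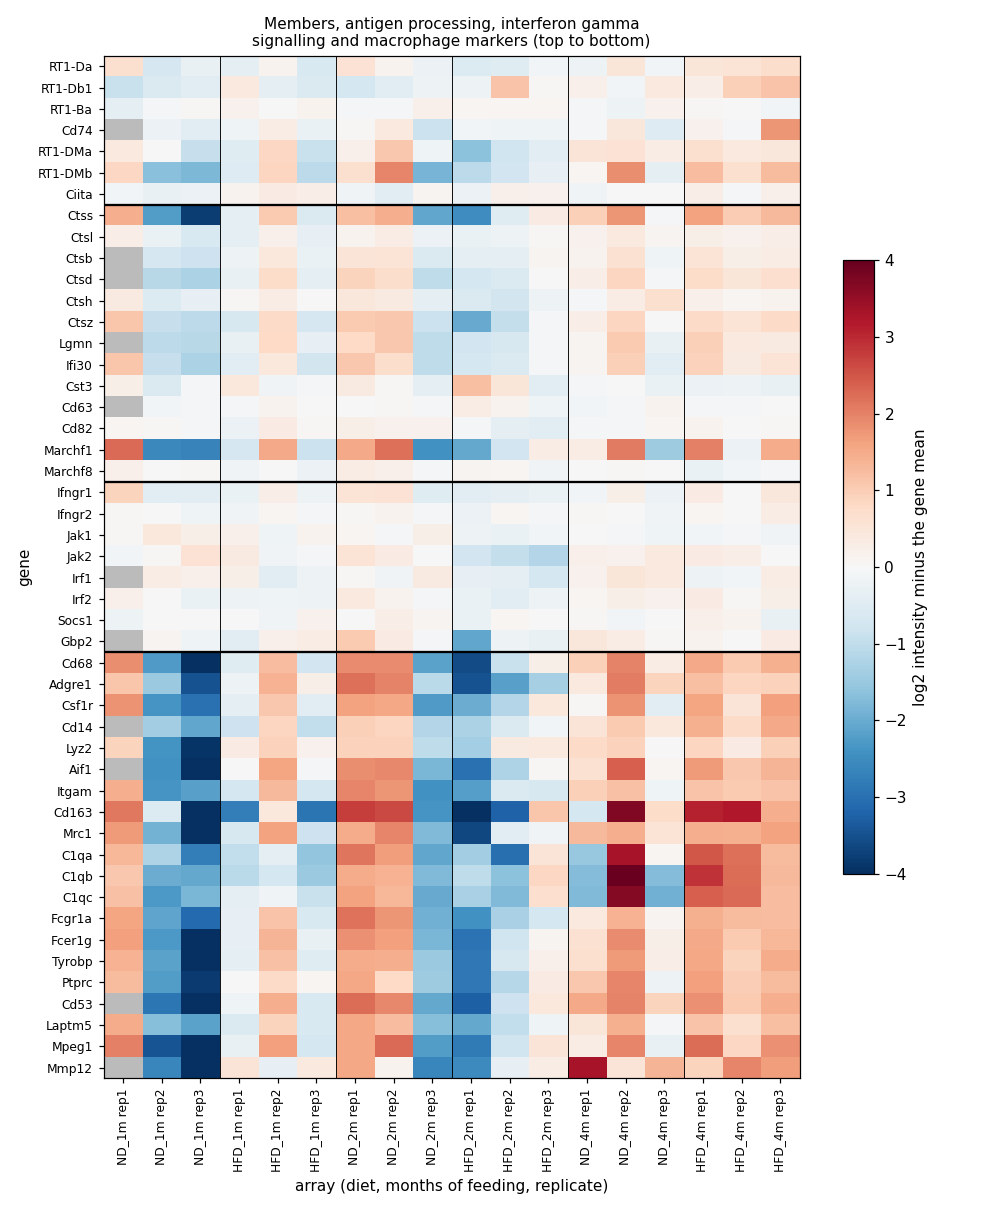
Log2 intensity minus the gene's mean over the arrays for the 7 members with a tested probe set, 13 antigen processing genes, 8 interferon gamma genes and 20 macrophage markers (blocks from top to bottom), on 18 arrays in 6 groups; grey cells have no value. RT1-DMa, RT1-DMb and Ctss vary along with the macrophage markers, and Jak2 is low in the 3 HFD 2-month arrays (6.20 to 6.61 log2).

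The genes most like the members were found by Pearson's r over 18 arrays among 10558 named genes, as a description. For the mean profile of the 6 members with a value on every array, the closest were Hcls1, a signalling adaptor of blood cells (r = 0.933), Trim30d (0.927), the phosphatase Ptprj (0.923), the RNA sensor Tlr7 (0.921) and Pctp (0.920). The cytokine Il18 (0.918), Lpxn (0.918), Dram2 (0.916), Arrb2 (0.914) and Igsf6 (0.914) completed the first 10. The mean profile was centred but not scaled, so its members with the widest ranges, RT1-DMb (3.82 log2 units) and RT1-DMa (2.71), weigh most in it. For RT1-DMb alone the closest were Coro7 (0.966), Hcls1 (0.959) and Ncf4, a subunit of the phagocyte oxidase (0.958), and for RT1-DMa the actin-binding Cotl1 (0.940). The closest to RT1-Db1 and Ciita were Vdac2 (0.803) and Kcnt1 (0.891), and neither was among the first 10 of the mean profile.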

How the data were processed

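RNA of 18 BMSC samples (3 in each of 6 diet-by-time groups) was measured on Affymetrix arrays. The authors deposited linear intensity for each probe set, made by RMA per the submitters' processing notes, whose version is not given in the sources used here. Each was taken to log2 with no added constant. The ND 1-month replicate 1 column was moved down by its 1343 trailing empty cells (correlation with the mean of the others 0.0909 before and 0.990 after). Of 31099 probe sets, 57 controls and the dimmest 30% of the rest (mean at or below 3.22 log2, 9.34 linear) were left out, which left 21729.

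All arrays entered 1 limma fit (version 3.58.1, R 4.3.3), with a mean for each group, default settings, 12 residual and 2.43 prior degrees of freedom, and two-sided tests; it was checked on simulated data. The number of arrays limits the precision. Every member probe set is named; other genes are those of fixed lists that passed, plus up to 4 a list by the largest absolute moderated t at 2 months. Ctss, Rfx5, Nfya, Nfyb and the receptor chains fall outside that rule and were named for their role after their values were seen. Genes most like the members follow Pearson's r. Macrophage relations used permutation tests. Replicate numbers did not pair the arrays (mean residual correlation -0.0254 over 45 pairs), so no block was used. Alternatives covered the filter, scaling, moderation, weights, arrays, probe sets, the macrophage covariate and the block. Members and lists were chosen with earlier results of these data known. Gene names came from the platform annotation, and loci and promoters from RefSeq tables of GRCr8.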

Additional observations from a re-analysis of the deposited data

How the results depend on the processing

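Under 31 alternatives, 18 of which each left out 1 array, no member call of the report could be lost because none was made, and 0 values past the threshold turned direction. Leaving out any 1 array gave 0 member calls in every comparison, and so did the fit with the replicate number as a block (0 in each; lowest adjusted p = 0.098, Ciita in the average), under which the calls over all probe sets at 2 months were 317 against 552. Calls appeared under 3 alternatives. Estimated array weights gave 3 members at 2 months (RT1-Db1 at 1.21, RT1-Da at -0.73 and RT1-DMa at -1.43 log2 units). Over all probe sets 4511 of 21729 passed there. The same weights gave 2 in the average (Ciita at 0.32 and RT1-Db1 at 0.75), where 3039 of all passed. They gave 2 from 2 to 4 months in HFD (RT1-Da at 1.03 and RT1-DMa at 1.41), where 3438 of all passed. From 1 to 4 months in HFD they gave 1 (RT1-Da at 1.03), where 559 of all passed. Fits of the compared arrays alone gave 2 from 2 to 4 months in HFD (RT1-DMb at 1.76 and RT1-Da at 0.96). There 303 of 21729 probe sets passed. No intensity filter gave 1 in the average (Ciita 1379381_at at 0.36), where 602 of 31042 probe sets passed. The cause of these changes was not tested. With the shifted column as deposited, 0 probe sets passed at 2 months, and with the 2-month arrays alone 2 did. Jak2 kept its call at 2 months under 28 of 31 alternatives, from -1.38 to -1.10 log2 units over all of them. Of 1669 values without a call, 65 changed sign. Signal near background limits RT1-Da, RT1-Bb and Cd74, and the spread of RT1-DMb limits its comparisons most. Ciita (mean 4.00 log2 on 1369214_a_at) was also dim.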
